A study of Mus musculus with 6 samples.

Results

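Platelets are cell fragments shed by megakaryocytes, and 10 genes of their granules, cytoskeleton and signalling were followed in the whole blood of food-restricted mice. The genes were chosen by name, with earlier results of these data known. Ppbp, Pf4, Vwf, Thbs1 and Selp represent the granules and Tubb1 the cytoskeleton. Rgs18, Nrgn and Gng11 represent signalling, and Alox12 eicosanoid synthesis. Probes were matched through their RefSeq accession, which gave 15 probes for 9 genes. Tubb1, the beta tubulin of the platelet's marginal band, matched no probe by accession and was not analysed here. The 9 genes all passed the filter on dim probes and were tested among 11508 features, of which 7910 were named genes.

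The FR mice were male C57BL/6J animals, 9 weeks old at the start, given 50% food restriction (FR) for 2 weeks, and the control mice were males of the same strain and age on a normal diet, with 8 animals per diet. RNA of their blood was pooled within a diet. Animals 1 to 4 of a diet made up pool 2, animals 5 to 8 pool 3, and all 8 of them pool 1. Each FR pool was hybridised with the control pool of its number on 2-colour Agilent arrays, once with FR in Cy5 (red) and once with FR in Cy3 (green), which gave 6 arrays. Pools 2 and 3 share no animal and were the 2 replicates of the test. Pool 1 joins the animals of the other pools, lay on another slide by the array numbers in the labels, and was kept as a repeat measurement.

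Platelets have no nucleus and carry RNA inherited from the megakaryocyte. Their alpha granules store chemokines and adhesive proteins, which are released or brought to the surface when agonists act on receptors coupled to G proteins. Activated platelets also release arachidonic acid from their membranes, and cyclooxygenase and lipoxygenase turn it into signalling lipids.

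RNA of 7 of the 9 genes was lower in FR blood than in control blood, none was higher, and Thbs1 and Selp did not pass the test. The decreases ran from 6.34-fold for Ppbp to 1.85-fold for Pf4. Among all features tested, 24.6% were called lower and 3.7% higher at a limma adjusted p under 0.05, against which the count of 7 of 9 lower and 0 of 9 higher is to be read. That comparison is a description and not a test, as the genes were chosen with earlier results known. An unadjusted limma p under 0.05 gave the same counts. The median log2 ratio of FR over control was -1.06 over the 9 genes and 0.01 over all features. By pool, the median over the 9 genes was -1.02, -0.89 and -1.23 in pools 1, 2 and 3, beside medians over all features of -0.02, 0.01 and -0.03. On all 6 arrays, 8 of the 9 genes had a ratio below 0, beside 30% of all features, and 0 of the 9 were above 0 throughout, beside 12.3% of all features. In bulk blood, fewer platelets and less of these RNAs in each platelet cannot be told apart, and a ratio is relative to the other labelled RNA on its array.

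The 2 replicate pools are pooled animals, so the p-values measure the spread between 2 pools and not between mice. With 2 pools limma set the spread of every feature to a common value for its brightness, and the adjusted p of single genes rests on that. With the degrees of freedom of the prior estimated from all 3 pools, 5.43, fewer features passed, 15.6% lower and 1.55% higher, and of the 9 genes again 7 were lower and 0 higher. The second adjusted p given for each gene is from that fit. A feature was tested where either diet was above background, so one seen in control blood alone entered through the diet where it is high. Where both diets had to be above background, 7079 features were tested and 18.5% were lower, and the 9 genes kept their calls, 7 of 9 lower.

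**Figure D1:**
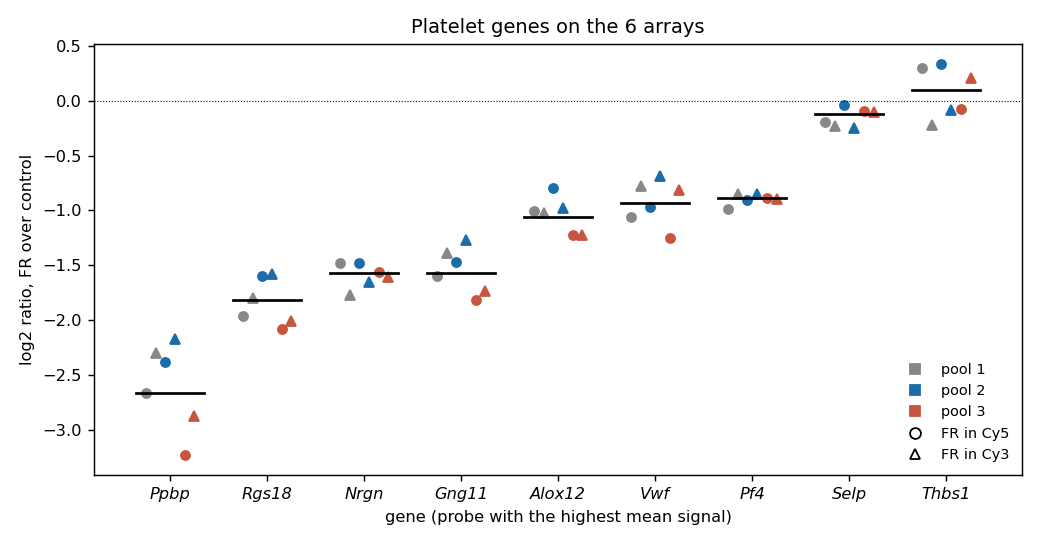
Log2 ratio of FR over control (y axis) for the brightest probe of each of the 9 genes (x axis) on each of the 6 arrays. Circles are arrays with FR in Cy5, triangles arrays with FR in Cy3, colours are pools, and the bar is the mean of pools 2 and 3. The points of 7 genes lie well below 0, those of Selp lie just below 0, and those of Thbs1 fall on both sides of it.

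The array quality bears on all of these values. Between 20.4% and 55.6% of the 43379 probe spots were well above background in the FR channel of an array, and between 37.2% and 62.1% in the control channel. The probe that stands for each of the 9 genes was well above background in both FR and control on all 6 arrays, and no spot was marked saturated. The number of arrays limits the precision. Of the erythroid markers 10 were on the array, and 9 of them were above background in FR blood and 9 in control blood on all 4 arrays of pools 2 and 3.

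Ppbp and Pf4 encode the CXC chemokines of the alpha granule. Their genes neighbour each other, with 0 genes annotated between them in RefSeq, and their promoters are shown because the ratios of the pair lay far apart. The sequences are those of RefSeq on GRCm38.p6, 250 bases before to 50 bases after the start site, written 5′ to 3′ in the direction of the gene. They lie at chr5:90768268-90768567 for Ppbp and chr5:90772185-90772484 for Pf4, both on the plus strand. The promoter of Selp, chr1:164115014-164115313 on the plus strand, is shown beside them as that of a gene that did not pass the test. Capitals mark each match to a motif searched.
Ppbp: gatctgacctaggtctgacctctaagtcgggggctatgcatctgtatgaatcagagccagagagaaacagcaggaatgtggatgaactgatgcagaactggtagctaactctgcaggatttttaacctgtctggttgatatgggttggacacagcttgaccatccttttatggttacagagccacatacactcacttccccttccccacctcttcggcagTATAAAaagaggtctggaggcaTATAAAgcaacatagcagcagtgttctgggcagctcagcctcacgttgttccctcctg
Pf4: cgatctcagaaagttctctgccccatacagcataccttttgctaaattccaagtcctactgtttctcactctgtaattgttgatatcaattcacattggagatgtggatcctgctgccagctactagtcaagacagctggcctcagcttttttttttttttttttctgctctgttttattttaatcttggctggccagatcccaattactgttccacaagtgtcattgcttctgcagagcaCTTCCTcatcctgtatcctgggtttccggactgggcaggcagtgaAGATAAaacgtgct
Selp: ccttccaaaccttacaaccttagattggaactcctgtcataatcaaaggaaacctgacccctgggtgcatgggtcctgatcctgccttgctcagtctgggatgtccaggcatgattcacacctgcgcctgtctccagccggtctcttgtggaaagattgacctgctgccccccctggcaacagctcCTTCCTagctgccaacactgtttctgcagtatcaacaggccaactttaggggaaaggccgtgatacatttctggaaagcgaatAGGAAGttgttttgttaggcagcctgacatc

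The motifs searched on both strands were the GATA motifs AGATAA or AGATAG and TGATAA or TGATAG, the ETS motifs AGGAAG and CGGAAG, the NF-E2 core TGAGTCA and the TATA box TATAAA. Factors of the GATA, ETS and NF-E2 families act in megakaryocytes, and the TATA box was added after the sequences had been seen. Ppbp held TATAAA at positions -30 to -25 and again at -8 to -3 from the start site, and none of the other motifs. Pf4 held AGGAAG on the other strand at -9 to -4 and AGATAA at 37 to 42. Selp held AGGAAG on the other strand at -64 to -59 and on the gene's strand at 20 to 25. Of 32851 promoters of that length, 29.8% held a GATA motif, 46.5% an ETS motif, 5.2% the NF-E2 core and 13.6% TATAAA. A promoter sequence was at hand for 6 of the 10 genes. That of Tubb1 held 1 ETS motif at -106 to -101, and those of Nrgn and Alox12 held none of these letters. The matches are letters in a window and not binding sites.

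Ppbp, pro-platelet basic protein, is the precursor of a chemokine that attracts neutrophils. Its normalised log2 signal was 12.15, 12.37 and 11.61 in FR blood of pools 1, 2 and 3, against 14.63, 14.65 and 14.66 in control blood. The control pools lay close together, the FR pools all lay below them, and pool 3 was lowest in FR. The log2 ratios with FR in Cy5 and then in Cy3 were -2.66 and -2.30 in pool 1, -2.38 and -2.17 in pool 2, and -3.23 and -2.88 in pool 3. The mean of pools 2 and 3 was -2.67 ± 0.55 (SD, n = 2), 6.34-fold lower in FR (limma adjusted p = 1.25e-55, and 0.00186 with the prior of 3 pools). Of the 11508 features 22 had a log2 ratio as low as that of Ppbp or lower, which is 0.191% of them.

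Pf4, platelet factor 4, binds heparin and other glycosaminoglycans once released. In FR blood its normalised log2 signal was 14.65, 14.56 and 14.56, against 15.57, 15.44 and 15.45 in control blood. The 3 FR pools lay together, below the 3 control pools. The log2 ratios with FR in Cy5 and then in Cy3 were -0.99 and -0.85 in pool 1, -0.91 and -0.85 in pool 2, and -0.88 and -0.89 in pool 3. Among the 7 genes called lower this was the narrowest range of the normalised ratios. In the scanner's processed signals FR over control ran from 0.40 to 0.56 for Pf4, wider than 0.29 to 0.36 for Nrgn. The mean log2 ratio of Pf4 in pools 2 and 3 was -0.88 ± 0.0049 (SD, n = 2), 1.85-fold lower in FR (limma adjusted p = 2.65e-05, and 0.019 with the prior of 3 pools). The ratio of Ppbp lay below that of Pf4 on each of the 6 arrays, and the difference between the genes was not tested.

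Among the other CXC chemokines, 12 of 13 were on the array and 1 passed the filter, Cxcl16, whose log2 ratio of -0.10 did not pass the test (limma adjusted p = 0.67). By the brightest probe of each gene, 7 of the 12 were above background on none of the 4 arrays of pools 2 and 3. These were Cxcl1, Cxcl2, Cxcl3, Cxcl5, Cxcl13, Cxcl14 and Cxcl17.

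**Figure D2:**
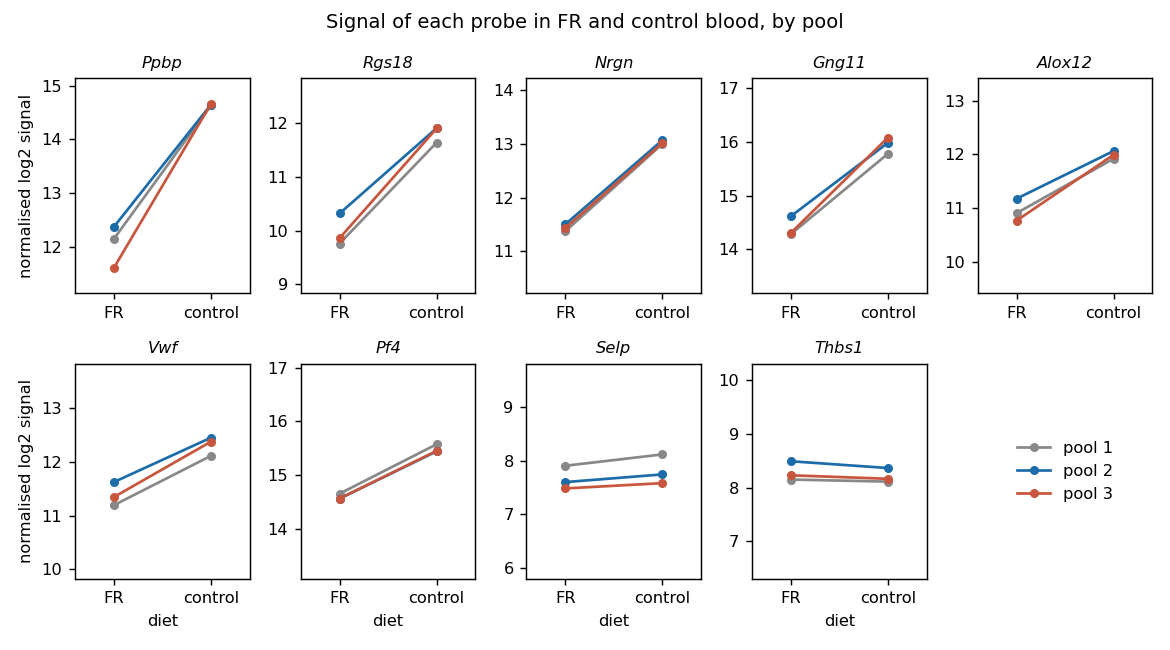
Normalised log2 signal (y axis) of the brightest probe of each gene in FR and control blood (x axis), with 1 line per pool, each point the mean of 2 arrays. All panels span the same range of log2 signal, so slopes compare between panels while heights do not. Lines of 7 genes climb from FR to control in every pool, and those of Selp and Thbs1 are nearly level.

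Vwf, von Willebrand factor, tethers platelets to exposed collagen and is made by megakaryocytes and by endothelial cells. Its normalised log2 signal was 11.20, 11.63 and 11.35 in FR blood, against 12.12, 12.46 and 12.38 in control blood. Every FR pool lay below every control pool. By array, with FR in Cy5 and then in Cy3, the ratios were -1.06 and -0.78 in pool 1, -0.97 and -0.68 in pool 2, and -1.25 and -0.81 in pool 3. In each pool the array with FR in Cy5 gave the lower ratio. The mean of pools 2 and 3 was -0.93 ± 0.15 (SD, n = 2), 1.90-fold lower in FR (limma adjusted p = 1.2e-08, and 0.00916 with the prior of 3 pools). A dimmer probe of Vwf gave -0.72, -0.66 and -0.58 in pools 1, 2 and 3, below 0 on all 6 arrays.

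Of 16 endothelial markers 8 were tested, and none was called lower or higher (limma), with a median log2 ratio of 0.15 and a range of -0.21 to 0.31. At an unadjusted p under 0.05, 0 were lower and 1 higher, and over the 20 alternatives 0 to 2 were called lower and 0 to 5 higher. Over all 16, tested or not, the summed linear signal was 2050 to 2299 in FR pools and 1944 to 2266 in control pools. Of the 16, 6 were above background in FR and 7 in control on all 4 arrays of pools 2 and 3. Background signal of the others is part of that sum, which would hide a change in the few genes detected. The brightest probes of Erg, Ramp2, Robo4, Tek and Tie1 were above background on none of the 4 arrays of pools 2 and 3. Vwf and Selp, both also endothelial genes, are to be read beside these values.

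Selp encodes P-selectin, the alpha-granule membrane protein that binds leukocytes through P-selectin glycoprotein ligand. The dim signal was 7.90, 7.60 and 7.48 in FR blood on the normalised log2 scale, against 8.11, 7.74 and 7.58 in control blood. FR lay below control within each pool, while the ranges of the 2 diets overlapped. The ratios with FR in Cy5 and then in Cy3 were -0.20 and -0.23 in pool 1, -0.04 and -0.25 in pool 2, and -0.09 and -0.10 in pool 3. The mean of -0.12 ± 0.03 (SD, n = 2) did not pass the test (limma adjusted p = 0.634, and 0.636 with the prior of 3 pools). With the 6 arrays as samples and the slide as a block, the same ratio was -0.14 with a limma adjusted p of 0.00699. That fit counts the animals of pool 1 again and takes the 2 arrays of a pool as separate samples. It called 7998 of 11495 features.

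The probe for Selp is printed at 10 spots on each array, which shows the spread of a dim signal between spots. In pool 2 with FR in Cy5 its spots ran from -0.27 to 0.20 with a median of -0.08, and in pool 1 with FR in Cy3 from -0.38 to -0.04 with a median of -0.25. A second Selp probe was above background on 4 of 6 arrays in FR and 5 of 6 in control and did not pass the filter. Selplg, the gene of the ligand, was lower in FR at a log2 ratio of -0.69 ± 0.32 (SD, n = 2; limma adjusted p = 1.84e-05, and 0.0322 with the prior of 3 pools). The brightest probe of Sele, the selectin of endothelial cells, was above background on none of the 4 arrays of pools 2 and 3.

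Thbs1 encodes thrombospondin, an alpha-granule glycoprotein that binds matrix proteins and activates latent TGF-beta. Its brightest probe had a normalised log2 signal of 8.15, 8.49 and 8.23 in FR blood, against 8.11, 8.36 and 8.16 in control blood. The levels of the 2 diets overlapped. The ratios with FR in Cy5 and then in Cy3 were 0.30 and -0.22 in pool 1, 0.34 and -0.09 in pool 2, and -0.08 and 0.21 in pool 3, so the 2 arrays of every pool differed in sign. The mean of 0.10 ± 0.04 (SD, n = 2) did not pass the test (limma adjusted p = 0.707, and 0.702 with the prior of 3 pools), and centring arrays on their median in place of loess gave -0.16, also not called.

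The other 2 probes of Thbs1 gave positive ratios on all 6 arrays. They ran from 0.03 to 0.22 for the second brightest, with a mean of 0.16 in pools 2 and 3, and from 0.05 to 0.36 for the dimmest, with a mean of 0.32. These probes do not stand for the gene in the test, and their normalised ratios are small beside the decreases above. In the scanner's processed signals FR over control ran from 1.084 to 1.54 for the second brightest and 1.104 to 1.96 for the dimmest. For the brightest probe, which stands for the gene, it ran from 0.956 to 1.425. The processed ratios of the other 2 probes were not tested. Thbs1 is also made by monocytes, whose markers are given with those of the other blood cells. Of the other 4 thrombospondin genes none passed the filter. The brightest probes of Thbs2 and Thbs4 were above background on none of the 4 arrays of pools 2 and 3.

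**Figure D3:**
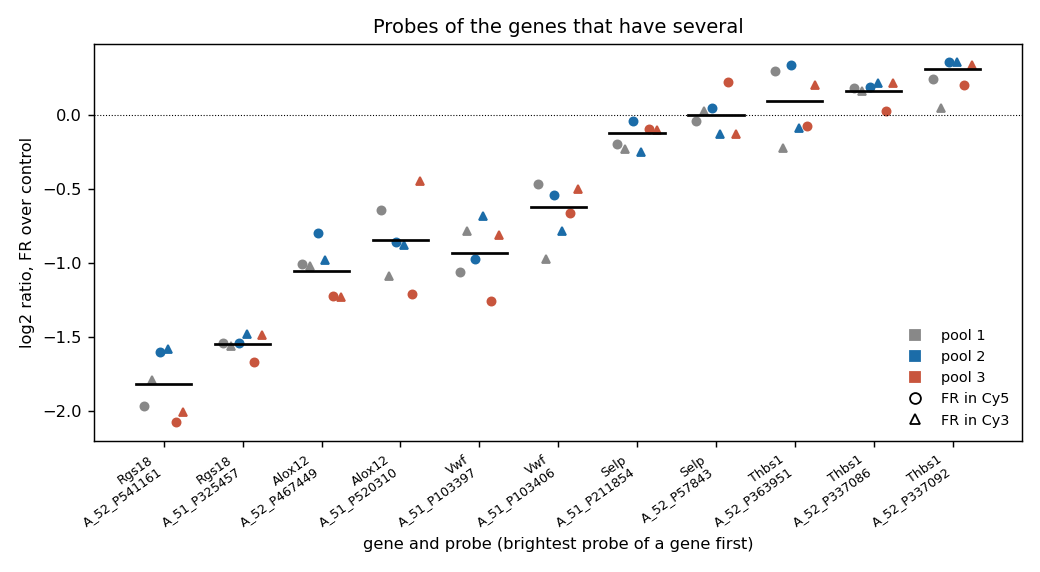
Log2 ratio of FR over control (y axis) on the 6 arrays for every probe of the 5 genes with more than 1 probe (x axis, brightest first within a gene). Circles are FR in Cy5, triangles FR in Cy3, colours are pools, and the bar is the mean of pools 2 and 3. Both probes of Rgs18, Alox12 and Vwf lie below 0 on every array, and those of Selp and Thbs1 lie near 0.

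Rgs18 encodes a regulator of G protein signalling that speeds the shut-off of Gq and Gi in platelets. On the normalised log2 scale its signal was 9.76, 10.32 and 9.86 in FR blood, against 11.64, 11.91 and 11.91 in control blood. The highest FR pool lay more than 1 log2 unit below the lowest control pool. The ratios with FR in Cy5 and then in Cy3 were -1.97 and -1.79 in pool 1, -1.60 and -1.58 in pool 2, and -2.08 and -2.01 in pool 3. The mean of pools 2 and 3 was -1.82 ± 0.32 (SD, n = 2), 3.52-fold lower in FR (limma adjusted p = 5.65e-33, and 0.00231 with the prior of 3 pools). A second probe gave -1.55, -1.51 and -1.58 in pools 1, 2 and 3, in each pool a smaller decrease than the brighter probe.

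Of 20 other RGS genes 6 were tested, 4 were lower and none higher, beside 24.6% of all features lower. With both diets above background 2 of 3 were lower, beside 18.5% of features, and Rgs2 and Rgs19 were not among the 3. Rgs2 had a log2 ratio of -1.44 ± 0.64, Rgs10 of -1.39 ± 0.14, Rgs19 of -1.12 ± 0.37 and Rgs14 of -0.60 ± 0.33 (SD, n = 2 each). Rgs14 did not pass with the prior of 3 pools (limma adjusted p = 0.0621). Rgs3 at -0.13 and Rgs12 at -0.06 were not called.

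Gng11 encodes a gamma subunit of heterotrimeric G proteins. Its normalised log2 signal was 14.29, 14.62 and 14.31 in FR blood, against 15.78, 15.99 and 16.08 in control blood. The FR pools all lay below the control pools, by more than 1 log2 unit. With FR in Cy5 and then in Cy3 the ratios were -1.60 and -1.39 in pool 1, -1.47 and -1.27 in pool 2, and -1.82 and -1.74 in pool 3. The mean of pools 2 and 3 was -1.57 ± 0.29 (SD, n = 2), 2.97-fold lower in FR (limma adjusted p = 2.4e-14, and 0.0049 with the prior of 3 pools). Of the other gamma subunits 5 were tested, 2 were lower and 0 higher, beside 24.6% and 3.7% of all features. The lower ones were Gng2 at -0.78 ± 0.31 and Gng10 at -0.49 ± 0.27 (SD, n = 2 each, limma adjusted p = 6.18e-06 and 6.1e-05). Neither was above background in both diets, and of the 2 gamma subunits that were, 0 were lower, beside 18.5% of features. Taking the second brightest probe of a gene left 1 of 5 lower. Gng5 at -0.19, Gng12 at -0.05 and Gng3 at 0.08 were not called.

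Nrgn encodes neurogranin, a calmodulin-binding protein best known from neurons and present in platelets. FR blood of pools 2 and 3 had a normalised log2 signal of 11.50 and 11.44, against 13.07 and 13.02 in control blood, and pool 1 had 11.38 in FR blood with a ratio of -1.63. Both diets were tight across pools and lay more than 1 log2 unit apart. By array, with FR in Cy5 and then in Cy3, the ratios were -1.48 and -1.77 in pool 1, -1.48 and -1.66 in pool 2, and -1.56 and -1.61 in pool 3. The arrays with FR in Cy3 gave the lower ratio in every pool, the reverse of Vwf. The mean of pools 2 and 3 was -1.58 ± 0.011 (SD, n = 2), 2.98-fold lower in FR (limma adjusted p = 1.05e-22, and 0.00231 with the prior of 3 pools). Among the genes for calmodulin, which neurogranin binds, Calm2 was lower at -1.55 ± 0.06 and Calm3 higher at 0.55 ± 0.03 (SD, n = 2 each; limma adjusted p = 2.86e-24 and 0.0013). The call of Calm3 was lost with arrays centred on their median.

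Alox12 encodes the platelet-type arachidonate lipoxygenase. Its normalised log2 signal was 10.90, 11.17 and 10.77 in FR blood, against 11.92, 12.06 and 11.99 in control blood. Every FR pool lay below every control pool. The ratios with FR in Cy5 and then in Cy3 were -1.01 and -1.02 in pool 1, -0.80 and -0.98 in pool 2, and -1.22 and -1.23 in pool 3. The mean of pools 2 and 3 was -1.06 ± 0.24 (SD, n = 2), 2.08-fold lower in FR (limma adjusted p = 2.44e-11, and 0.00728 with the prior of 3 pools). A second probe gave -0.86, -0.87 and -0.83 in pools 1, 2 and 3, with single arrays between -1.21 and -0.44.

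Of 18 other genes of the arachidonic acid pathway 12 were tested, 6 were lower and 1 higher, beside 24.6% and 3.7% of all features. With the prior of 3 pools 3 were lower and 0 higher, beside 15.6% and 1.55%, and over the 20 alternatives the lower count ran from 1 to 7. Alox5ap, the activating protein of leukotriene synthesis, was at -1.42 ± 0.09 and Ptgs1, the cyclooxygenase of platelets, at -0.54 ± 0.07 (SD, n = 2 each; limma adjusted p = 5.27e-20 and 0.0013). Gpx4, a glutathione peroxidase that reduces lipid peroxides, was higher at 0.56 ± 0.25 (SD, n = 2; limma adjusted p = 0.00219), and did not pass with the prior of 3 pools (adjusted p = 0.0633) or with arrays centred on their median. The lipoxygenases Alox5 at 0.04, Alox12b at 0.01 and Alox12e at 0.10 were not called.

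The order of the 9 genes by mean log2 ratio was Ppbp, Rgs18, Nrgn, Gng11, Alox12, Vwf, Pf4, Selp and Thbs1. Ppbp lay more than 1 SD below Rgs18. Neighbours from Rgs18 to Gng11 lay within 1 SD of Rgs18, and those from Alox12 to Pf4 within 1 SD of Alox12. Ppbp, Rgs18, Gng11, Alox12 and Vwf had a lower ratio in pool 3 than in pool 2, with the widest gap of -0.78 for Ppbp. Nrgn and Pf4 differed between these pools by -0.02 and -0.0069.

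**Figure D4:**
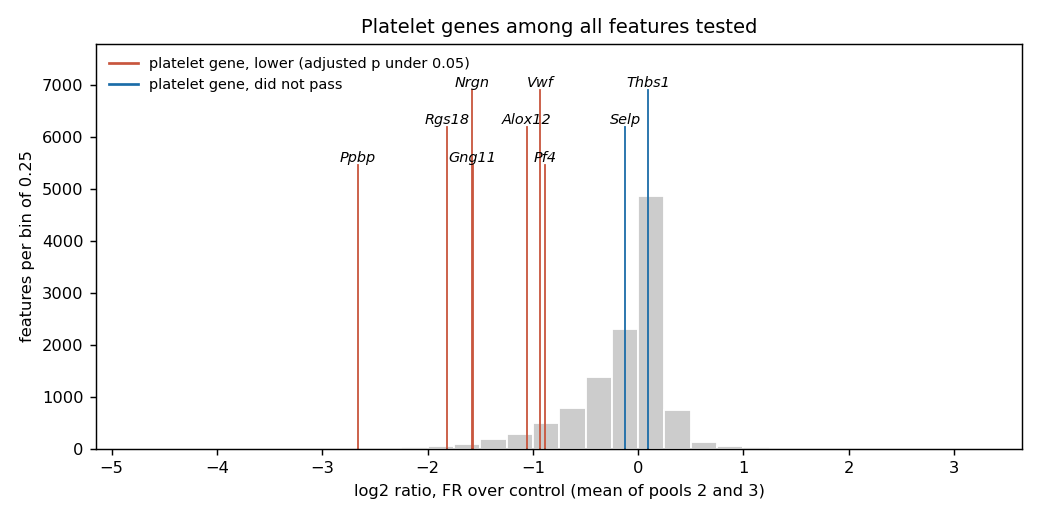
Number of features (y axis) by log2 ratio of FR over control, mean of pools 2 and 3 (x axis), in bins of 0.25, with a vertical line for each of the 9 genes. Red lines are genes called lower and blue lines genes that did not pass; line heights only separate the names. Most features lie near 0 with a long tail to the left, in which the 7 red lines fall.

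Other platelet genes were read from lists of their roles, beside the 24.6% of all features called lower. Of 26 surface receptor genes 21 were tested, 13 were lower and none higher, with a median log2 ratio of -0.66. P2ry12, an ADP receptor, was at -2.07 ± 0.32, Cd9, a tetraspanin, at -1.94 ± 0.20, and Cd226, an adhesion receptor, at -1.53 ± 0.10 (SD, n = 2 each; limma adjusted p of 6.04e-23 or less). Of 28 other granule cargo genes 16 were tested, 8 were lower and none higher, with a median of -0.35. Srgn, the proteoglycan that holds granule contents, was at -1.70 ± 0.23, Ccl5, a chemokine, at -1.67 ± 0.30 and F13a1, a clotting factor subunit, at -1.45 ± 0.05 (SD, n = 2 each; limma adjusted p of 1.76e-21 or less). Of 28 genes of granule formation and secretion 17 were tested, 8 were lower and none higher, with a median of -0.31. With the prior of 3 pools 3 of 17 were lower, a share near the 15.6% of all features in that fit. Those were Snap23 at -1.38 ± 0.23, Sytl4 at -1.29 ± 0.13 and Rab27b at -0.98 ± 0.014 (SD, n = 2 each). Of the genes named from these 3 lists, Ccl5 and Sytl4 were not above background in both diets. Where that was required, 12 of 19 receptor genes, 7 of 11 cargo genes and 3 of 8 genes of granule formation and secretion were lower, beside 18.5% of features.

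In place of Tubb1, 28 of 32 other cytoskeletal genes of platelets were tested, with a median log2 ratio of -0.58. Of these 19 were lower and none higher, beside 24.6% and 3.7% of all features. Arpc1b, a subunit of the actin-branching complex, was at -1.83 ± 0.44, Lims1, an adaptor at integrins, at -1.64 ± 0.02 and Tmsb4x, which binds actin monomers, at -1.35 ± 0.06 (SD, n = 2 each; limma adjusted p of 1.72e-10 or less). Of the 7 other beta tubulins, all tested, 3 were lower and 0 higher, beside the same shares of all features. Tubb2a at -1.30 ± 0.011, Tubb5 at -0.75 ± 0.25 and Tubb3 at -0.40 ± 0.0035 were lower (SD, n = 2 each), the last not with the prior of 3 pools (limma adjusted p = 0.0938). Tubb2b at -0.14, Tubb6 at -0.07, Tubb4b at 0.07 and Tubb4a at 0.30 were not called.

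Of 39 other signalling genes 32 were tested, with a median log2 ratio of -0.56. Of these 20 were lower and 2 higher, beside 24.6% and 3.7% of all features. Plcg2, a phospholipase downstream of collagen receptors, was at -1.92 ± 0.55 and Rasa3, which restrains Rap1, at -1.87 ± 0.02 (SD, n = 2 each; limma adjusted p of 5.96e-36 and 2.34e-35). The 2 higher genes were Calm3 and Gnas, a G protein alpha subunit, at 0.43 ± 0.34 (SD, n = 2), which did not pass with the prior of 3 pools (limma adjusted p = 0.14). Neither was called higher with arrays centred on their median, with the mean over a gene's probes, or with no replicate block. Of 15 transcription factors of megakaryocytes 13 were tested, with a median of -0.18. Of these 4 were lower, a share near the 24.6% of all features, and 2 were higher, beside 3.7% of all features. Lyl1 at -1.77 ± 0.49, Fli1 at -1.48 ± 0.14 and Nfe2 at -1.19 ± 0.16 were lower, and Mafk at 0.85 ± 0.34 and Zfpm1 at 0.61 ± 0.19 were higher (SD, n = 2 each; limma adjusted p of 0.000203 or less).

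Markers of other blood cells were read in the same way, beside 24.6% of all features lower and 3.7% higher. With the prior of 3 pools these shares were 15.6% and 1.55%. Where both diets were above background, 18.5% of features were lower. B cell markers were lower for 7 of 10 tested, and for 3 of 6 where both diets were above background, with a summed linear signal of 2137 to 2556 in FR pools against 9112 to 15835 in control pools. Monocyte markers were lower for 8 of 9 tested, for 5 of 9 with the prior of 3 pools and for 2 of 3 where both diets were above background, with sums of 4065 to 5124 in FR against 29807 to 44617 in control. T cell markers were lower for 3 of 7 tested, and for 1 of 4 where both diets were above background, with sums of 2998 to 3439 in FR against 4210 to 4507 in control. Neutrophil markers were lower for 3 and higher for 1 of 8 tested, and with the prior of 3 pools 0 of 8 were lower and 0 higher. Their median log2 ratio was -0.27, -0.46 and -0.0028 in pools 1, 2 and 3, with sums of 8905 to 10523 in FR against 11239 to 22078 in control. Erythroid markers were lower for 1 and higher for 2 of 9 tested, with overlapping sums of 347151 to 403941 in FR and 325551 to 383983 in control. The summed signal of the 9 platelet genes was 56133 to 64840 in FR pools against 150816 to 162264 in control pools. Gng11, Pf4 and Ppbp make up most of the control sum. In control blood of pool 1 their log2 signals were 15.78, 15.57 and 14.63, against 8.11 for both Thbs1 and Selp. All sums in this paragraph are over every listed gene on the array, tested or not, so the brightest genes weigh most. Many of the listed platelet genes are also made by leukocytes, and the part of those cells in these results was not tested.

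**Figure D5:**
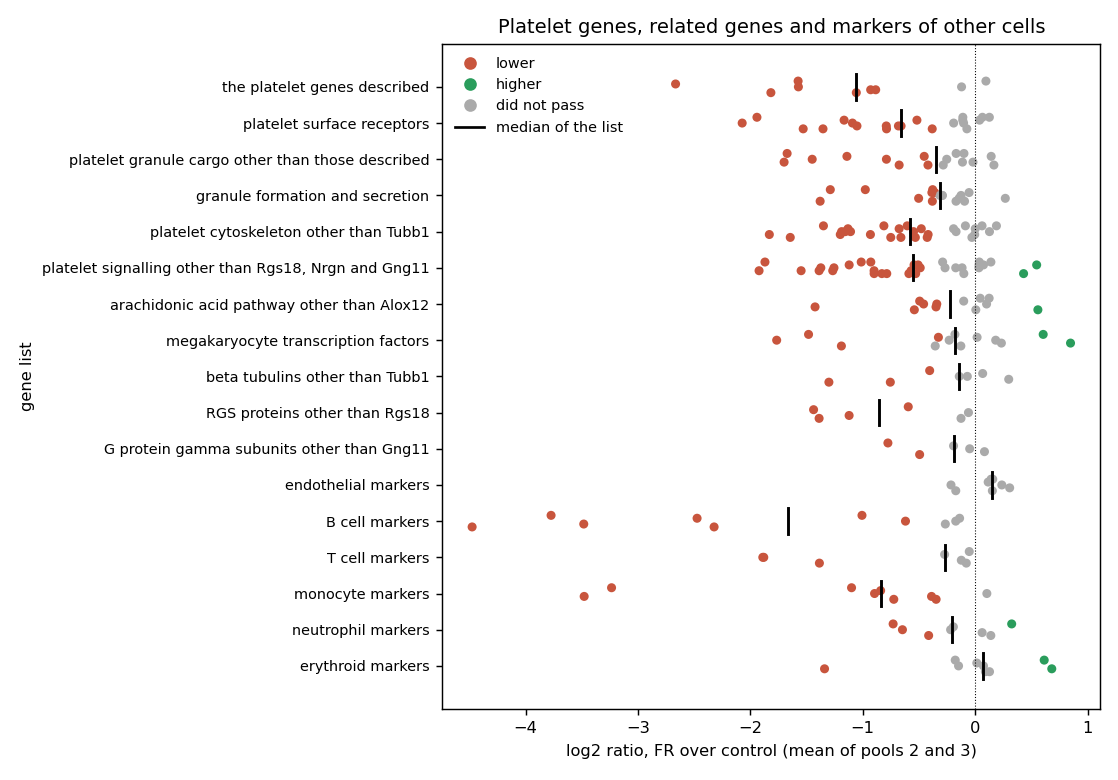
Log2 ratio of FR over control, mean of pools 2 and 3 (x axis), for each gene tested in the platelet lists and in the marker lists of other cells (rows on the y axis). Red points are lower, green higher and grey did not pass (limma adjusted p), and the bar is the median of the list. Endothelial markers sit around 0, while the B cell and monocyte lists reach further left than any platelet list. Several genes of the B cell and monocyte lists were above background in control blood alone. The lowest gene of each, at -4.48 and -3.48, was above background in both diets.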

How the data were processed

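Whole blood RNA pools of FR and control mice were measured on 6 two-colour arrays. The submitters' processing notes name Agilent Feature Extraction 11.0.1.1, and the scanner files the authors deposited give each spot's intensity (linear). Their deposited series table is on the log10 scale and matched red over green processed signal within 0.001 at 100% of spots. Other steps are not given in the sources used here.

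From the median signals and background medians, normexp (offset 50) and loess with control spots at weight 0 gave log2 ratios of the deposited intensities. After leaving out controls and outlier-marked spots, spots were averaged, signs turned to FR over control by the dyes in the labels, and the 2 arrays of a pool averaged. Loess centred the features, and median centring put their median at -0.19. A probe was tested if either diet stood well above background on each of the 4 arrays in the test, and the brightest probe stood for its gene. Of 41174 probes 23374 were named through RefSeq accessions. Ratios were tested against 0, two-sided, with limma 3.58.1 in R 4.3.3 (trend, Benjamini-Hochberg over 11508 features, adjusted p under 0.05). FR and control of a pool share an array, so pools pair the diets.

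On simulated data with 200 changed features and 20 runs, this test recovered 82.2% of log2 changes of 1 and 99.9% of changes of 2, with 9.98% false calls. With the prior of 3 pools it recovered 62.6% and 99.7%, with 4.11% false calls.

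The genes and lists were chosen with earlier results of these data known. Named are all 10 genes, up to 3 called genes with the largest change and 1 sign on all 4 arrays from each list, and every tested relative of a gene, except for genes that are not reported here. Genes called higher in the signalling, arachidonic acid and transcription factor lists are named where they number 5 or fewer, after their values were seen. Values were recomputed under 20 alternatives.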

Additional observations from a re-analysis of the deposited data

Results flagged for a closer look

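The second brightest probe of Thbs1 gave a log2 ratio of FR over control of 0.0293 on the array of pool 3 with FR in Cy5, below its other 5 arrays, which lay between 0.16 and 0.22. The gap to the nearest of them was 0.702 of the whole range. It was the 1 such value among the 15 probes of these genes that were examined, and chance marks about 1 in 20 such groups of arrays.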

How the results depend on the processing

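The 7 genes called lower kept their direction and stayed past the threshold under all 20 alternatives. Ppbp ranged from -2.83 to -2.38 with a largest adjusted p of 0.00186, and Pf4, with the largest adjusted p of the 7, from -1.09 to -0.86 (up to 0.0326). Thbs1 was never called (-0.16 to 0.20, smallest adjusted p 0.126), and Selp was called with the slide as a block, where pool 1 is counted too. The count of features called, 3260, was 1750 where both diets had to be above background, 1970 with the prior of 3 pools and 7998 with the slide as a block (4449 lower, 3549 higher). With pool 1 in place of pool 2 or of pool 3 it was 2852 or 5897, of which 4167 were lower and 1730 higher without pool 3. With no replicate block, FR and control taken as unpaired, it was 1091 (limma), and 7 of the 9 genes were called lower. The cause of these shifts was not tested. Signal over background limits Selp and Thbs1, and pooling hides the spread between mice.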
